A study of Mus musculus with 20 samples.

Results

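The 10 genes described here encode Toll-like receptors and the molecules that work beside them in microbial sensing, namely *Tlr2*, *Tlr3*, *Tlr4*, *Tlr7*, *Cd14*, *Ly96*, *Myd88*, *Nod1*, *Irak1* and *Ticam1*. They were chosen by gene symbol, with earlier results of these data known, and all 10 were among the 17211 genes of the expression table. RNA was sequenced from the brains of 20 mice aged 14 weeks, 10 *Winnie* and 10 C57BL/6, with 5 mice labelled female and 5 labelled male in each genotype. *Winnie* mice have a missense change in *Muc2*, whose mucin is made by goblet cells of the gut, and they develop colitis without any treatment, while C57BL/6 mice of the same colony served as controls. *Muc2* itself was not among the genes of the expression table, so the genotype labels could not be checked against the gene that differs between the strains. Each sample was brain RNA of a single mouse, and in such bulk RNA fewer cells of a type and less RNA per cell cannot be told apart.

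Toll-like receptors are membrane proteins that bind molecules typical of microbes, at the cell surface for *Tlr2* and *Tlr4* and inside endosomes for *Tlr3* and *Tlr7*. On binding, most of them recruit the adaptor MyD88 and the IRAK kinases, whereas TLR3 uses the adaptor TRIF, encoded by *Ticam1*, and TLR4 can use either, and both routes lead to NF-κB and interferon-regulated genes. In the brain these receptors are known mainly from microglia, the resident macrophages, and for TLR3 also from astrocytes.

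Values are CPM, the reads of a gene scaled to a common total per brain. The listed genes held 16540303 to 23923769 reads per brain, so that a single read was worth 0.0418 to 0.0605 CPM. *Xist* and *Ddx3y* went against the sex label in 9 of 10 C57BL/6 brains and in 0 of 10 *Winnie* brains, so sex is given as labelled and no brain was regrouped. The library numbers ran in one block for C57BL/6 and in the next for *Winnie*, so library order and genotype cannot be told apart. Markers of neurons, astrocytes, oligodendrocytes and microglia were present in every brain, with the 7 neuron markers summing to 6151 to 6832 CPM in C57BL/6 and 6197 to 6778 CPM in *Winnie* brains. Of the 3 blood leukocyte markers measured, out of 10 listed, the sum was 0.157 to 5.30 CPM in C57BL/6 and 0.105 to 7.04 CPM in *Winnie* brains. Such sums do not show that the genotypes were alike in cell make-up, which was not tested. All 5 red blood cell markers had lower means in *Winnie* brains. Of 7 endothelial markers 5 had higher and 2 lower means, among the lower *Cldn5*, at 16.4 ± 2.37 CPM in C57BL/6 and 11.7 ± 1.70 CPM in *Winnie* brains (SD, n = 10 per genotype).

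Per kilobase of exon, the kinase gene *Irak1* was the highest of the 10 genes, at 10.9 ± 0.637 CPM per kb (SD, n = 20 brains), followed by *Tlr3* at 3.11 ± 0.367 CPM per kb. The adaptors came next, with *Ticam1* at 2.12 ± 0.262 and *Myd88* at 1.71 ± 0.238 CPM per kb. *Nod1* had 1.03 ± 0.219, *Cd14* 0.805 ± 0.158, *Tlr7* 0.717 ± 0.129 and *Ly96* 0.663 ± 0.236 CPM per kb. The lowest levels were those of *Tlr2*, at 0.375 ± 0.0993, and *Tlr4*, at 0.202 ± 0.0376 CPM per kb. *Irak1* was thus 53.8-fold above *Tlr4*, the receptor whose signal it carries. Only the range of *Irak1* did not overlap that of its neighbour in this order. Within single brains *Tlr3* exceeded *Ticam1* in 20 of 20, *Ticam1* exceeded *Myd88* in 18 and *Myd88* exceeded *Nod1* in 20, whereas the neighbours *Cd14* over *Tlr7* and *Tlr7* over *Ly96* kept their order in 14 of 20 brains each.

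**Figure D1:**
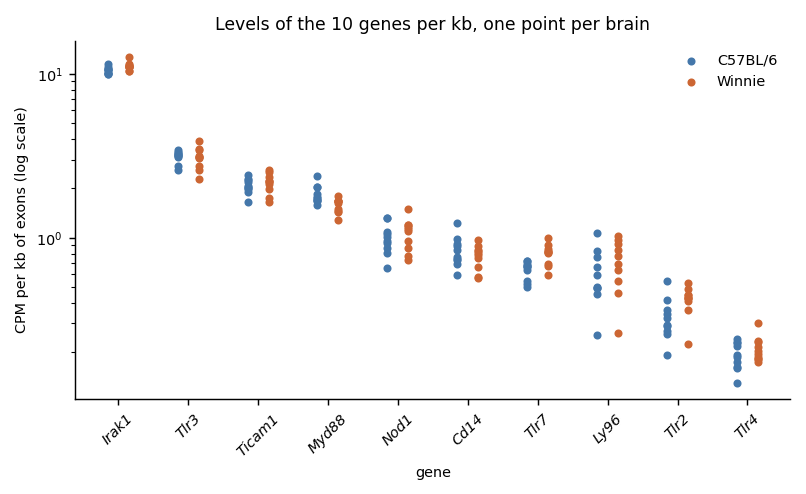
Level of each of the 10 genes in each of the 20 brains, in CPM per kilobase of exon on a log axis, with C57BL/6 and *Winnie* brains marked separately. *Irak1* stands above all other genes, at a mean of 10.9 CPM per kb, and *Tlr4* lies lowest, at 0.202 CPM per kb.

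Genotypes were compared on log2(CPM + 0.5) with limma across all 17211 genes, with p-values adjusted by Benjamini-Hochberg to give the FDR. None of the 10 genes was a differentially expressed gene (DEG) at an FDR under 0.05, where 434 of all genes, or 2.52%, were DEGs (1.52% higher and 1.01% lower in *Winnie* brains). At an unadjusted p under 0.05 there were 4 of the 10 genes, *Tlr2*, *Tlr7* and *Irak1* with higher and *Myd88* with lower means in *Winnie* brains, beside 17.6% of all genes at that threshold, 9.53% higher and 8.08% lower. By edgeR on the recovered reads 0 of the 10 genes passed an FDR under 0.05, with 2.99% of all genes passing, and by limma-voom 0 passed, with 3.17%. By DESeq2 there was 1, *Tlr7*, among the 6 of the 10 genes that had an adjusted p. Of the 13874 genes of the table that had one, 7.04% passed. The study's own threshold, an FDR under 0.001 and at least a 1.5-fold change, was met by 0 genes of the table in limma. This count is not on the study's own set of brains, since the study describes fewer per genotype than the labels name and which ones is not given in the sources used here. The study applied its threshold to edgeR results, whereas here it was counted in limma only, on a scale that understates the fold changes of low genes. Means were higher in *Winnie* brains for 7 of the 10 genes, against 51.0% of all genes, and the median log2 fold change was 0.08 for the 10 genes and 0.00 for all genes. Since the 10 genes were chosen with earlier results of these data known, these counts do not test them as a set.

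*Tlr2* (GRCm38 chr3:83836272-83841767, minus strand), which recognises bacterial lipoproteins, had 0.577 CPM in the lowest, 0.932 at the median and 1.63 in the highest C57BL/6 brain. The same values were 0.677, 1.30 and 1.61 CPM in *Winnie* brains. The groups overlapped almost fully, although 9 of 10 *Winnie* brains lay above the C57BL/6 median. The means were 0.992 ± 0.292 CPM in C57BL/6 and 1.27 ± 0.248 CPM in *Winnie* brains (SD, n = 10 per genotype), a log2 fold change of 0.25 (SE 0.11, 95% interval 0.02 to 0.48, limma FDR 0.227). These levels rested on 11 to 30 reads per brain, for which counting alone gives a coefficient of variation of 21.6%, beside 26.5% observed. Among the receptors *Tlr4* (chr4:66827584-66930284, plus strand), the receptor for lipopolysaccharide, was similarly scarce, with 14 to 32 reads per brain. It ranged from 0.726 through a median of 1.05 to 1.34 CPM in C57BL/6 brains and from 0.976 through 1.11 to 1.68 CPM in *Winnie* brains. The ranges overlapped, and the highest value was that of *Winnie* replicate 9. Its log2 fold change was 0.09 (SE 0.09, limma FDR 0.666), and its coefficient of variation of 18.6% was no greater than the 21.6% that counting alone gives.

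*Tlr7* (chrX:167304929-167330558, minus strand), an endosomal receptor for single-stranded RNA, had the smallest limma p of the 10 genes. Its log2 fold change was above that of *Tlr2* on the log2(CPM + 0.5) scale, but below it with a pseudocount of 0.1 (0.32 against 0.34 for *Tlr2*) and in edgeR (0.33 against 0.35), so the order of the pair depends on the scale. In C57BL/6 brains it lay at 2.06 CPM in the lowest, 2.73 at the median and 2.94 in the highest brain, and in *Winnie* brains at 2.42, 3.36 and 4.05 CPM. Most *Winnie* brains were therefore high, with 9 of 10 above the C57BL/6 median and 7 of 10 above the highest C57BL/6 brain. The means were 2.59 ± 0.333 and 3.26 ± 0.475 CPM, a log2 fold change of 0.28 (SE 0.09, 95% interval 0.10 to 0.46) with a p of 0.0028 and an FDR of 0.0720 by limma. The FDR was 0.0467 by DESeq2 and, by limma, 0.0434 without *Winnie* replicate 10, while the other brains left out in turn gave up to 0.139. With *Ddx3y* as a covariate for sex the FDR was 0.0737. In the same brains 14 of 16 microglia markers had lower and 2 higher means in *Winnie*, where 51.0% of all genes had higher means. At an unadjusted limma p under 0.05, 5 of the 16 were lower and 0 higher, beside 8.08% and 9.53% of all genes. At an FDR under 0.05 there were 0 of 16. Their sums were 442 to 492 CPM in C57BL/6 and 408 to 527 CPM in *Winnie* brains, with none at 0. All 5 measured markers of border macrophages, out of 6 listed, had higher means in *Winnie* brains. Of these, 2 passed an unadjusted limma p under 0.05 and 0 of 5 an FDR under 0.05. Their sums were 3.30 to 6.24 CPM in C57BL/6 and 3.97 to 7.11 CPM in *Winnie* brains, with none at 0. *Tlr7* is set beside the microglia marker mean further below, a relation that does not give the part of microglia in its values. The part of border macrophages was not tested.

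**Figure D2:**
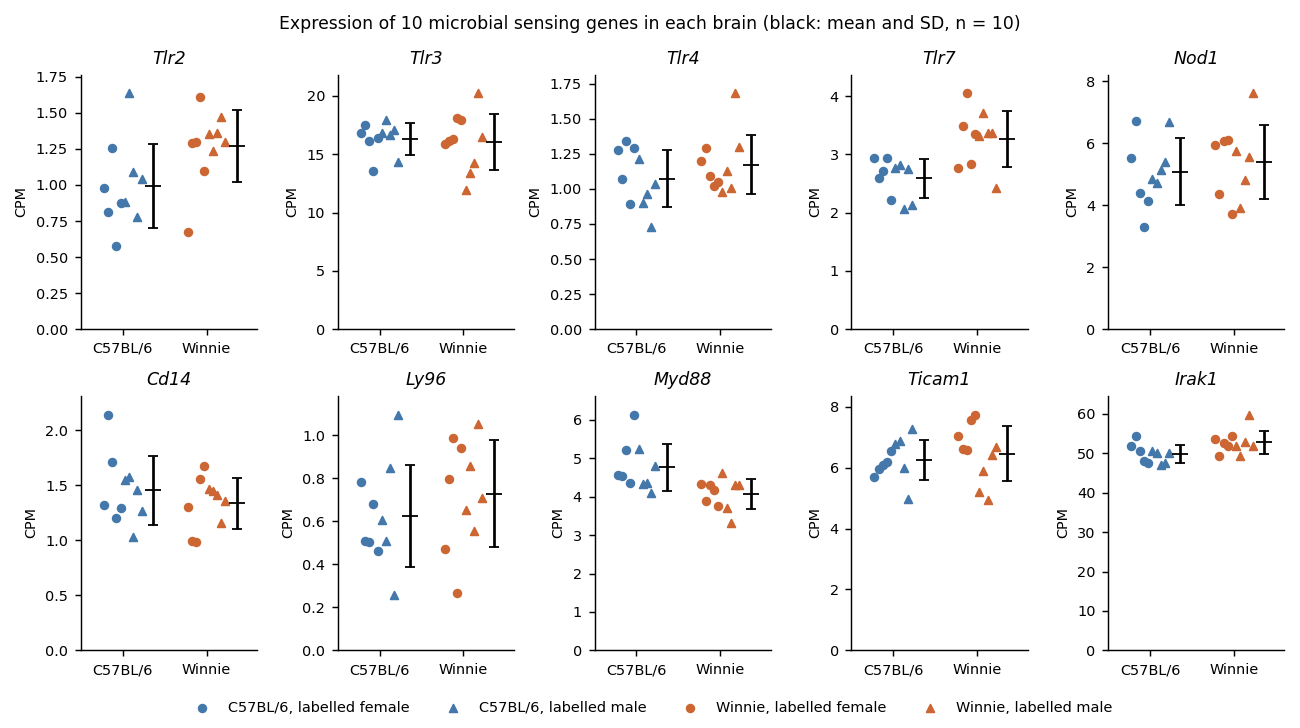
CPM of each of the 10 genes in the 10 C57BL/6 and 10 *Winnie* brains, 1 point per brain (circles labelled female, triangles labelled male), with the mean and SD of each group and each axis starting at 0. The groups overlap in every panel, and in that for *Tlr7* 7 of 10 *Winnie* brains lie above the highest C57BL/6 brain.

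Promoter sequences are shown for *Tlr3* and *Myd88*, the only genes among those with a RefSeq window whose letters held one of the 3 motifs searched. The windows run from 250 bases before to 50 bases after the RefSeq start, 5′ to 3′ on the gene's strand, with the motif in capitals. Windows were found for 6 of the 10 genes, 8 windows in all, since *Nod1* and *Irak1* have a pair each, and *Cd14*, *Tlr7*, *Tlr4* and *Ly96* had none. The motifs, on both strands, were GAAA repeated after any 2 bases, an interferon regulatory factor pattern present in 3.44% of the 32851 mouse windows, GGGA and TTTCC around any 1 base, an NF-κB pattern present in 0.411%, and GAGGAAGT, a PU.1 pattern present in 3.2%. In *Tlr3* the match lies 211 bases before the start, and in *Myd88* 40 bases before it.
*Tlr3*, GRCm38.p6 chr8:45410331-45410630, minus strand: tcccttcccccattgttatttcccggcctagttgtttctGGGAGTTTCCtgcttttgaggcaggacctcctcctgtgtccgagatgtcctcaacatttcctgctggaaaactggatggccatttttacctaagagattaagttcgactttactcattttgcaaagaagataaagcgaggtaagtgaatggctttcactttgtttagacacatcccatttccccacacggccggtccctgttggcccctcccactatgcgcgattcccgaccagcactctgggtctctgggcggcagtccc
*Myd88*, GRCm38.p6 chr9:119339969-119340268, minus strand: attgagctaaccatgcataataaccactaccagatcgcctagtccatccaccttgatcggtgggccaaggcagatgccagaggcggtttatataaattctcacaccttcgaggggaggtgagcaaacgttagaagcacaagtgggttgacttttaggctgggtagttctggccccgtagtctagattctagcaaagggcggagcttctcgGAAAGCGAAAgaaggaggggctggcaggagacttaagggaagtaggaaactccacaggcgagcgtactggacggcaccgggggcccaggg
These matches describe the letters of the windows only.

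*Tlr3* (chr8:45395665-45411080, minus strand), an endosomal receptor for double-stranded RNA, was the most expressed receptor per kilobase, with 220 to 387 reads per brain. It ranged from 13.5 through a median of 16.7 to 17.9 CPM in C57BL/6 brains and from 11.9 through 16.2 to 20.2 CPM in *Winnie* brains. The *Winnie* range enclosed that of C57BL/6, and the means were 16.3 ± 1.37 and 16.1 ± 2.41 CPM. The log2 fold change was −0.03 (SE 0.07, 95% interval −0.18 to 0.11, limma FDR 0.863), and without *Winnie* replicate 6 it was 0.01. Its coefficient of variation was 11.8%, beside 5.69% from counting alone. *Nod1* (chr6:54923949-54972612, minus strand), a cytosolic sensor of bacterial peptidoglycan, had 3.30, 5.00 and 6.73 CPM in the lowest, median and highest C57BL/6 brain and 3.72, 5.66 and 7.61 CPM in *Winnie* brains. The groups overlapped over most of their range, with a log2 fold change of 0.07 (SE 0.12, limma FDR 0.799). *Nod1* varied more between brains than counting gives, with a coefficient of variation of 21.2% beside 10.04%.

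The co-receptors of TLR4 also overlapped between genotypes. *Cd14* (chr18:36725067-36726798, minus strand), which hands lipopolysaccharide to the receptor, had 1.03, 1.39 and 2.14 CPM in the lowest, median and highest C57BL/6 brain and 0.986, 1.38 and 1.68 CPM in *Winnie* brains. The medians lay next to each other, and the log2 fold change was −0.09 (SE 0.10, limma FDR 0.709). *Ly96* (chr1:16688051-16709611, plus strand), which encodes MD-2, the part of the complex that holds lipopolysaccharide, had only 5 to 20 reads per brain. Its values were 0.259, 0.559 and 1.10 CPM in C57BL/6 and 0.268, 0.752 and 1.05 CPM in *Winnie* brains. The ranges were nearly the same, with a log2 fold change of 0.12 (SE 0.13, limma FDR 0.675) and a coefficient of variation of 35.7%, beside 28.0% from counting alone.

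*Myd88* (chr9:119335934-119341411, minus strand), the adaptor of most Toll-like receptors, had the lowest log2 fold change of the 10 genes. It lay at 4.10, 4.55 and 6.14 CPM in the lowest, median and highest C57BL/6 brain and at 3.32, 4.24 and 4.61 CPM in *Winnie* brains. All but 1 of the *Winnie* brains were below the C57BL/6 median, and 4 of 10 were below the lowest C57BL/6 brain. The means were 4.76 ± 0.614 and 4.07 ± 0.388 CPM, a log2 fold change of −0.20 (SE 0.07, 95% interval −0.35 to −0.05) with a p of 0.0115 and an FDR of 0.138 by limma. *Myd88* overlaps *Acaa1a* on the other strand, whose log2 fold change was −0.14 (limma FDR 0.185) at 35.6 CPM in C57BL/6 and 32.2 CPM in *Winnie* brains. Since the strand setting of the counting is not given in the sources used here, reads of *Myd88* and *Acaa1a* may not be separable. On its own strand *Myd88* overlaps *Slc22a14*, a gene absent from the expression table, whose reads a strand setting would not separate. *Ticam1* (chr17:56269319-56276786, minus strand), the adaptor of TLR3, lay at 4.98, 6.15 and 7.27 CPM in C57BL/6 and at 4.93, 6.60 and 7.75 CPM in *Winnie* brains. Its ranges overlapped almost fully, and its log2 fold change was 0.04 (SE 0.08, limma FDR 0.832). *Irak1* (chrX:74013914-74023918, minus strand), a kinase recruited by MyD88, was the most precisely measured of the 10 genes, with 778 to 1210 reads per brain. It had 47.0, 50.1 and 54.3 CPM in the lowest, median and highest C57BL/6 brain and 49.4, 52.2 and 59.9 CPM in *Winnie* brains. The C57BL/6 median was exceeded in 8 of 10 *Winnie* brains, and the C57BL/6 maximum only in *Winnie* replicate 9. The means were 49.7 ± 2.29 and 52.8 ± 2.96 CPM, a log2 fold change of 0.08 (SE 0.04, 95% interval 0.01 to 0.16, limma p = 0.0371, FDR 0.249).

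**Figure D3:**
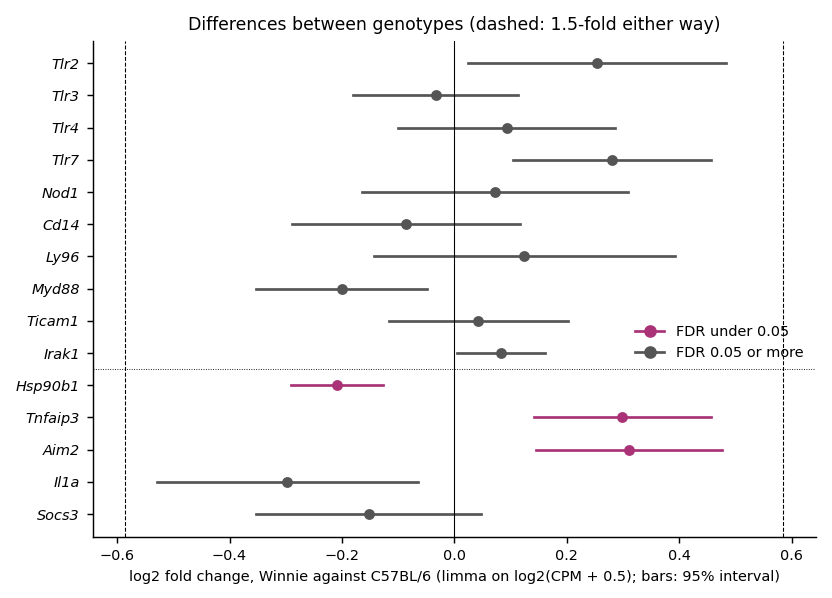
Log2 fold change of each of the 10 genes and of 5 named pathway genes, *Winnie* against C57BL/6, on the log2(CPM + 0.5) scale, with the 95% interval from limma. The interval of *Tlr7* runs from 0.10 to 0.46 and that of *Myd88* from −0.35 to −0.05, dashed lines mark 1.5-fold either way, and purple points mark the 3 genes at an FDR under 0.05, *Hsp90b1*, *Tnfaip3* and *Aim2*.

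Other genes of the same pathways were read from 4 lists, and their counts stand beside the 1.52% of all genes that rose and the 1.01% that fell at an FDR under 0.05. Of 13 other Toll-like receptors and accessory proteins measured, out of 15 listed, 0 rose and 1 fell at an FDR under 0.05, with log2 fold changes from −0.38 for *Cd180* to 0.26 for *Tlr9* and a median of −0.02. The gene that fell was *Hsp90b1* (chr10:86690209-86705509, minus strand), the endoplasmic reticulum chaperone that folds several Toll-like receptors, from 314 ± 13.6 CPM in C57BL/6 to 272 ± 21.2 CPM in *Winnie* brains (log2 fold change −0.21, SE 0.04, limma FDR 0.0059). Its values were 294, 316 and 331 CPM in the lowest, median and highest C57BL/6 brain and 241, 272 and 320 CPM in *Winnie* brains. The groups were nearly separate, since 9 of 10 *Winnie* brains lay below the lowest C57BL/6 brain. Of 33 other adaptors and signaling genes measured, out of 34 listed, 1 rose and 0 fell, with 24 of the 33 higher (51.0% of all genes were), a median log2 fold change of 0.05 and a span from −0.15 for *Irf3* to 0.42 for *Nfkbia* (limma FDR 0.113). The gene that rose was *Tnfaip3* (chr10:19000910-19015657, minus strand), encoding A20, a ubiquitin-editing enzyme that ends NF-κB signaling. *Tnfaip3* had 3.81, 4.29 and 4.93 CPM in the lowest, median and highest C57BL/6 brain and 4.23, 5.48 and 6.61 CPM in *Winnie* brains. High *Winnie* brains prevailed, with 7 of 10 above the highest C57BL/6 brain, and the log2 fold change was 0.30 (SE 0.08, limma FDR 0.0354).

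Of 16 other microbial sensors measured, out of 18 listed, 1 rose and 0 fell, with a median log2 fold change of 0.02 and a lowest value of −0.27 for *Nlrp3*. *Aim2* (chr1:173350879-173466040, plus strand), the cytosolic DNA sensor of an inflammasome, rose from 1.97, 2.46 and 3.16 CPM in the lowest, median and highest C57BL/6 brain to 2.89, 3.14 and 3.99 CPM in *Winnie* brains. Every *Winnie* brain was above the C57BL/6 median and 5 of 10 were above the highest C57BL/6 brain (log2 fold change 0.31, SE 0.08, limma FDR 0.0371). The span of *Aim2* includes *Cadm3* on the other strand, a gene at 564 CPM in C57BL/6 and 576 CPM in *Winnie* brains, with a log2 fold change of 0.03 (limma FDR 0.661), and without the strand setting a share of *Cadm3* reads in *Aim2* cannot be told apart. Of 13 genes induced by Toll-like receptors that were measured, out of 24 listed, 0 rose and 0 fell, with log2 fold changes from −0.31 for *Cxcl10* to 0.44 for *Lcn2* and a median of −0.05. In that list the smallest p-values were those of *Il1a*, at 0.647 ± 0.182 CPM in C57BL/6 and 0.433 ± 0.164 CPM in *Winnie* brains (log2 fold change −0.30, limma FDR 0.152), and *Socs3*, at 2.79 ± 0.353 and 2.49 ± 0.550 CPM (−0.15, limma FDR 0.437). *Il1b*, *Tnf* and *Il6* were among the listed genes absent from the expression table. *Tnfaip3* lost its call without any one of C57BL/6 replicates 4, 5, 6, 8 and 9 and *Winnie* replicates 1, 3, 4, 7 and 10, at FDRs up to 0.0669. *Aim2* lost its call without any one of C57BL/6 replicates 3, 4, 5 and 9 and *Winnie* replicates 2, 3, 7, 8 and 9, at FDRs up to 0.0780, whereas *Hsp90b1* kept its call without any 1 brain, at FDRs of 0.0015 to 0.0159.

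*Tlr7* and *Irak1* lie on the X chromosome, so the labelled sexes were also compared, first within *Winnie*, where labels and RNA agreed. None of the 10 genes differed between labelled female and male *Winnie* brains at an FDR under 0.05, where 0.0639% of all genes did. *Tlr7* had 3.30 ± 0.523 CPM in the 5 labelled females and 3.23 ± 0.481 CPM in the 5 labelled males, a log2 difference, female minus male, of 0.02 (limma FDR 0.981). The other X-linked gene, *Irak1*, had 52.4 ± 1.91 and 53.1 ± 3.97 CPM (−0.02, limma FDR 0.969). The largest difference was that of *Ticam1*, with 7.11 ± 0.531 CPM in labelled females and 5.82 ± 0.748 CPM in labelled males (log2 difference 0.27, SE 0.10, limma p = 0.0114, FDR 0.452), 1 of 10 genes at a p under 0.05 beside 8.31% of all genes. In C57BL/6, 0 of the 10 genes differed between labelled sexes at an FDR under 0.05 (0% of all genes), and 0 of 10 at a p under 0.05, beside 5.32%, but 9 of these 10 labels went against the RNA. For the same reason, the fit of the genotype difference by labelled sex set brains of opposite RNA sex beside each other and does not test whether that difference varied with sex. As labelled, 0 of 10 passed an FDR under 0.05 in it (0.0697% of all genes did) and 1 of 10 at a p under 0.05, beside 6.12%.

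Because the Toll-like receptors of the brain are known mainly from microglia, the 10 genes were set beside the mean log2 level of the 16 microglia markers. This mean was 4.43 ± 0.0603 in C57BL/6 and 4.33 ± 0.121 in *Winnie* brains (SD, n = 10). None of the 10 genes followed it at an FDR under 0.05 by limma with genotype in the fit, where 0.151% of all genes did, and 1 of 10, *Tlr3*, did at an unadjusted p under 0.05, beside 12.1% of all genes. Both shares of all genes include the 16 markers, which are tied to their own mean by construction. Across 20 brains *Tlr3* gave Pearson r = 0.60 (permutation p = 0.0047) and Spearman rho = 0.55 (permutation p = 0.0135), with r = 0.37 without the 2 brains farthest from the median. Within genotypes its r was 0.14 in C57BL/6 and 0.78 in *Winnie*, and 0.66 in *Winnie* without replicate 9, so it was weaker in C57BL/6, and its limma FDR was 0.130. *Tlr7* went the other way, with r = −0.53 (permutation p = 0.0172), rho = −0.58 (permutation p = 0.0080) and r = −0.70 without the 2 farthest brains. Within genotypes its r was −0.20 in C57BL/6 and −0.38 in *Winnie*, or −0.68 without replicate 9. With genotype in the limma fit its p was 0.229 and its FDR 0.678. *Irak1* had r = 0.14 over 20 brains and 0.78 within *Winnie*, or 0.42 without replicate 9, the brain with the highest marker level. These are 10 relations, and with 20 permutation tests among them no value given here is adjusted except the limma FDR. The r, rho and permutation p over 20 brains took no account of genotype, so they include any difference between the genotypes. For *Tlr7* the mean was higher and the marker mean lower in *Winnie* brains.

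**Figure D4:**
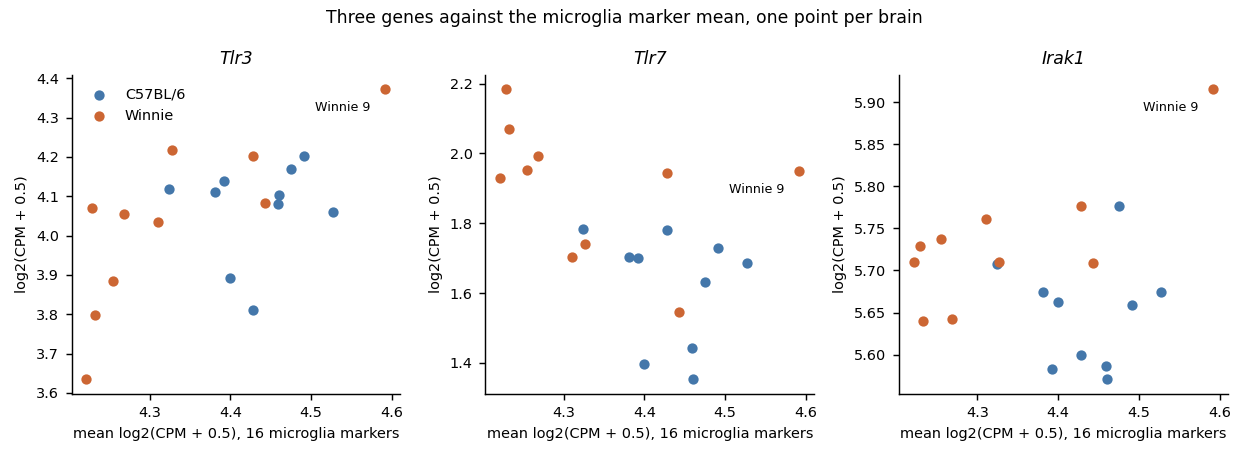
Log2(CPM + 0.5) of *Tlr3*, *Tlr7* and *Irak1* against the mean log2 level of 16 microglia markers, 1 point per brain, for 10 C57BL/6 and 10 *Winnie* brains. Over the 20 brains, without regard to genotype, r is 0.60 for *Tlr3* and −0.53 for *Tlr7*. Within C57BL/6 and *Winnie* it is 0.14 and 0.78 for *Tlr3* and −0.20 and −0.38 for *Tlr7*. *Winnie* replicate 9 lies farthest to the right.

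Genes most like each member were ranked over the 20 brains by Pearson r of deviations from the genotype means, among genes with a mean of at least 1 CPM. For *Nod1* they were *Neat1* (r = 0.88), *Plxnb3* (r = 0.88) and *Gjc3* (r = 0.87). For *Tlr3* they were *Sox2ot* (r = 0.82), *Celsr1* (r = 0.81) and *Rasgrp3* (r = 0.81). *Ticam1* was most like *BC064078* (r = 0.81), *Irak1* most like *Elk3* (r = 0.81), *Myd88* most like *Fam98c* (r = 0.80) and *Tlr7* most like *Gm9575* (r = 0.71). *Tlr4* was most like *Mdm1* (r = 0.77), *Cd14* most like *Prickle3* (r = 0.77), *Tlr2* most like *Pcid2* (r = 0.76) and *Ly96* most like *Ldb1* (r = 0.73). Each r was picked as among the largest in a search of many genes, which gives high values even without a relation, and was not tested. Among the 45 pairs of the 10 genes themselves r ran from −0.46, for *Tlr7* and *Nod1*, to 0.56, for *Tlr4* and *Myd88*. All of these values share the 20 libraries and their depth.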

How the data were processed

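The authors made polyA libraries from each mouse brain (MGIEasy V2, paired-end 100-base reads, MGISEQ-2000RS), processed reads with RNAsik 1.5.4 on GRCm38, counted them per gene with FeatureCounts and deposited CPM made with Degust. The aligner, the strand setting and the low-count filter are not given in the sources used here; every listed gene has at least 0.5 CPM in at least 4 brains. Each sample's smallest CPM step gave the value of 1 read, and 100% of values were then whole reads within 0.001 CPM. Precision from reads covers counting error only.

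All 20 brains were grouped by labelled genotype and compared with limma 3.58.1 (R 4.3.3, trend and robust variances) on log2(CPM + 0.5). The study's methods name edgeR, and its threshold (FDR under 0.001, 1.5-fold) was applied here to the limma results only. Fold changes on this scale understate those of low genes. Correlations used 100000 resamples, two-sided (scipy 1.17.1, Python 3.11.15). Permutation p-values measure only the spread between these brains, which were shuffled without regard to genotype.

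The 10 genes and the pathway lists were chosen with earlier results of these data known. Genes named outside the 10 were those of a list at an FDR under 0.05, or, with none, the 2 with the smallest p; other genes named as ends of a range or as overlapping neighbours were chosen after their values were seen. GENCODE M21 gave coordinates and matched 17128 of 17211 genes, all on the same chromosome; promoter windows are RefSeq on GRCm38.p6.

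Settings varied were the pseudocount (0.1 or 1), the minimum mean (1 CPM), median-ratio and TMM scaling, the count models of edgeR 4.0.16 and of DESeq2 1.42.0 run on recovered reads, labelled sex or *Ddx3y* as covariates, each labelled sex alone, a replicate block and each brain left out in turn. Added after seeing the data were limma-voom and a fit without the 9 C57BL/6 brains whose sex label went against their RNA. The fits were tested on simulated data with 200 changed genes. No libraries were duplicates (chi-square per gene 2.60 or more between any pair of a genotype).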

Additional observations from a re-analysis of the deposited data

Results flagged for a closer look

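In 4 of 30 sets of a gene and a genotype, 1 brain stood apart from the other 9, its gap to the nearest brain being a larger share of the range than Dixon's 95% critical value allows. Chance flags about 1 in 20 such sets. *Tlr4* was 1.68 CPM in *Winnie* replicate 9, with the next brain at 1.30 CPM. *Irak1* was 59.9 CPM in the same brain, with the next at 54.3 CPM. *Hsp90b1* was 320.4 CPM in *Winnie* replicate 4, inside the C57BL/6 range, with the next *Winnie* brain at 281 CPM. *Il1a* was 0.826 CPM in *Winnie* replicate 10, with the next at 0.573 CPM.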

How the results depend on the processing

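The number of the 10 genes at an FDR under 0.05 was 0 under every alternative except DESeq2, which gave 1, and 0 to 1 when each brain was left out in turn, the 1 being *Tlr7* without *Winnie* replicate 10. The 434 DEGs among all genes became 977 by DESeq2, 6 in labelled females alone, 61 in labelled males alone, 1 without the 9 C57BL/6 brains whose sex label went against their RNA (which leaves 1 C57BL/6 brain, assumed to vary like the others) and 169 (without C57BL/6 replicate 5) to 694 (without C57BL/6 replicate 10) with each brain left out. Leaving out C57BL/6 replicate 3, 8 or 9 or *Winnie* replicate 2, 3, 7 or 8 gave 216 to 270. The 3 pathway DEGs became 0 in labelled females, 1 in labelled males, 0 without those 9 brains, and 1 to 3 with each brain left out. The replicate numbers gave little sign of pairing the brains. A correlation over 0.1 was seen in 2 of 10 same-numbered pairs, and 1 of 10 brains correlated best with its own number. Such correlations cannot show that no pairing existed. The fit with a replicate block gave 227 DEGs and 0 of the 10 genes, and *Aim2* had an FDR of 0.0568. Directions turned for values that passed no test: *Tlr3* was 0.0684 in labelled females, −0.0705 to 0.0114 with each brain left out (positive without *Winnie* replicate 6) and 0.22 without the 9 brains, *Tlr4* was −0.0334 in labelled females, *Cd14* 0.0002 in labelled males and 0.0943 without the 9 brains, *Ticam1* −0.12 in labelled males, and *Socs3* 0.0148 without the 9 brains. Of the sex differences, *Tlr7* ran from −0.0617 to 0.0764 with each brain left out (negative without *Winnie* replicate 3 or 10) and *Irak1* from −0.0440 to 0.0249 (positive without *Winnie* replicate 2 or 9). Without the 9 brains *Tlr7* was 0.12 (FDR 0.962), *Myd88* −0.09 (0.967), *Hsp90b1* −0.12 (0.891), *Tnfaip3* 0.36 (0.833) and *Aim2* 0.32 (0.841). Of the 10 genes, *Ly96*, with a mean under 1 CPM, could not be given a value at the stricter minimum. The cause of these changes was not tested. The fits on 1 labelled sex also set brains of mostly opposite RNA sex beside each other. The fewest reads lay behind *Ly96*, *Tlr2*, *Tlr4* and *Cd14*.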
